A study of Mus musculus with 17 samples.

Results

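The genes described here are 9 genes that mark GABAergic interneurons, the local inhibitory neurons of the brain. They were chosen by name, as the rows of the deposited count table whose Ensembl identifiers belong to *Gad1*, *Gad2*, *Slc32a1*, *Sst*, *Npy*, *Calb2*, *Lhx6*, *Nkx2-1* and *Htr3a* in the GENCODE annotation, and all 9 were found among the 55359 genes of the table. RNA was sequenced from 17 libraries of male mice at postnatal day 1, 9 from forebrain and 8 from testes. WT pups, 3 forebrains and 2 testes, were born from WT mothers. *Ocn*+/− pups (3 forebrains and 3 testes) and *Ocn*−/− pups (3 forebrains and 3 testes) were all born from *Ocn*−/− mothers, so that effects of the pup's own genotype, of its mother's genotype and of the litter cannot be told apart in any comparison with WT. *Ocn* stands for osteocalcin, a hormone made by bone, and the mutant mice were of the *Ocn*GK strain on a 129/SvEv background. The labels name the brain tissue hippocampus, while the study's methods name forebrain, which is the name kept here. No source used here says that libraries of 1 genotype came from separate litters, so the p-values measure the spread between these libraries.

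GABA, the main inhibitory transmitter of the brain, is made from glutamate by the glutamate decarboxylases GAD67 (*Gad1*) and GAD65 (*Gad2*) and is loaded into synaptic vesicles by the transporter VGAT (*Slc32a1*). Most cortical and hippocampal interneurons are born in the ganglionic eminences before birth, where *Nkx2-1* specifies those of the medial eminence and switches on *Lhx6*. Somatostatin (*Sst*) and neuropeptide Y (*Npy*) are peptides of interneurons of medial origin, whereas calretinin (*Calb2*) and the serotonin receptor subunit *Htr3a* mark interneurons of caudal origin, and calretinin is also made by cells of the olfactory bulb. GABA is in addition the transmitter of striatal projection neurons, so that *Gad1*, *Gad2* and *Slc32a1* do not mark interneurons alone.

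The deposited counts of a library summed to between 6518151 and 14621584 in forebrain and between 7302401 and 8289015 in testes. WT 2 and WT 3 were the shallowest forebrains, and WT 3, with 6518151 counts, had the lowest median correlation with the other forebrains (0.964, against 0.976 to 0.982 for the other libraries). The osteocalcin gene *Bglap* had 0 to 5 counts and *Bglap2* had 0 counts in every forebrain, so the targeted genes could not serve as a check of the genotype labels. Neuronal genes (*Tubb3*, *Stmn2* and 5 others) summed to between 6523 and 7120 CPM per forebrain, and 10 genes of midbrain and hindbrain, such as *En1* and *Hoxb3*, to at most 1.84 CPM. The 6 genes listed for hippocampus summed to between 239 and 425 CPM, and the 6 listed for forebrain in general to 630 to 902 CPM in WT and 402 to 558 CPM in mutant forebrains. CPM is the count of a gene scaled by library size after TMM normalization, as edgeR gives it.

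The regulatory sequence before the start of a gene was at hand in RefSeq for 7 of the 9 genes, *Calb2* and *Htr3a* being the others. The 2 short stretches are shown, one for the motif it holds and one for the arrangement of transcripts around a gene whose level differed between genotypes. Positions are those of GRCm39, found by matching the RefSeq sequence to that build. The stretch of *Sst*, chr16:23709624-23709653 on the minus strand, runs from 59 to 30 bases before the RefSeq start and holds the cAMP response element for which this gene is known, in capitals. The stretch of *Slc32a1*, chr2:158452428-158452604 on the plus strand, ends at the base before the gene's first base in GENCODE, and no capitals are used in it because none of the motifs searched was found.
Sst: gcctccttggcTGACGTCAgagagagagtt
Slc32a1: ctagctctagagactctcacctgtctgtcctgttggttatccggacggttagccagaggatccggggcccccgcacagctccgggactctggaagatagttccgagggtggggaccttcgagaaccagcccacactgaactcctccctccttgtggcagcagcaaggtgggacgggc

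Each of 3 motifs was searched on both strands in the 250 bases before each RefSeq start. The cAMP response element (TGACGTCA) was found in 1 of the 9 starts that the 7 genes have, that of *Sst*, and in 1.55% of the 32851 starts in the table. The TATA motif (TATAAA) was found in 1, that of *Gad1*, where it reads on the opposite strand, against 12.4% of all starts, and the homeodomain core (TAATTA) in none, against 4.84%. GENCODE places starts of *Sst* and *Gad1* further upstream, so that both motifs lie before the start in RefSeq but within the bounds of the gene in GENCODE. The long noncoding gene *Gm14204* is transcribed away from *Slc32a1* on the opposite strand and shares 6.03% of its exon bases. It had 181 to 430 counts per forebrain, against 275 to 1257 for *Slc32a1*, and since the library kit is not stated to keep the strand, reads from the shared bases cannot be told apart. A second antisense gene, *Gm14205*, shares 13.9% of the exon bases of *Slc32a1* and had 0 counts in all forebrains. *Gad1os* (0.951% of the exon bases of *Gad1*) and *Gm26973* (3.62% of those of *Nkx2-1*) had at most 10 and 1 counts.

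All 9 genes were detected in every forebrain. Per kilobase of the canonical GENCODE transcript, averaged over the 9 forebrains, the level was highest for *Sst* (67.3 CPM per kb) and *Npy* (62.2), whose ranges over libraries overlapped. They were followed by *Gad1* (32.9), *Lhx6* (24.2), *Slc32a1* (21.3), *Gad2* (19.6) and *Calb2* (18.9), each overlapping with the next in this order. *Nkx2-1* (3.09) and *Htr3a* (2.11) overlapped with each other and lay below the other 7 genes in every library. With all annotated exons as the length, *Sst* (32.0) and *Npy* (19.5) were still the highest and *Nkx2-1* (2.45) and *Htr3a* (2.08) the lowest, while *Gad2* moved from rank 6 to 3 and *Gad1* from 3 to 6.

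**Figure D1:**
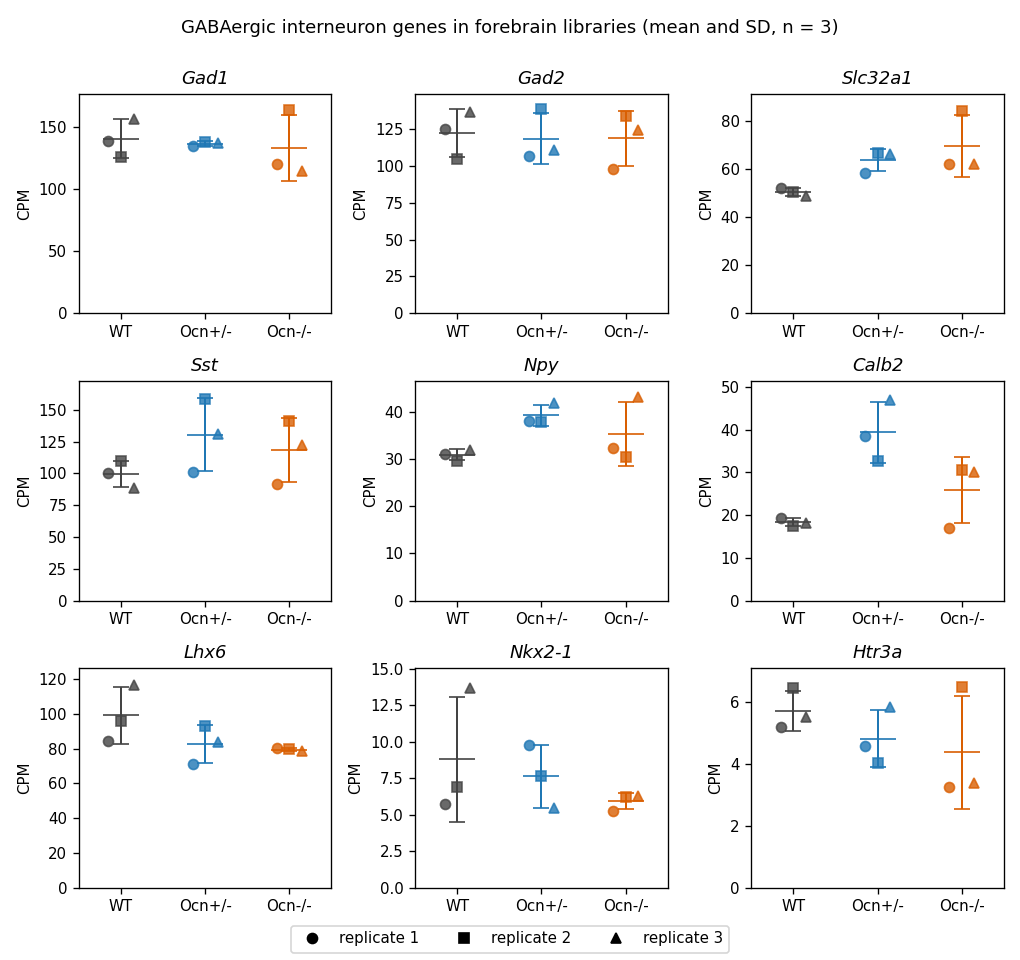
Level of each gene (CPM, linear axes from 0) in the 9 forebrain libraries, by genotype; symbols mark the replicate, horizontal lines the mean and bars the SD of 3 libraries. The 3 WT libraries of *Slc32a1* and *Calb2* lie close together, with *Ocn*+/− libraries above them, whereas the groups of *Gad1* and *Gad2* overlap.

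*Gad1* and *Gad2*, the enzymes that make GABA, did not pass the test between any genotypes in forebrain. *Gad1* stood at 139.2, 125.6 and 156.9 CPM in the WT libraries, at 134.7, 138.2 and 137.3 in *Ocn*+/− and at 120.2, 163.8 and 115 in *Ocn*−/− libraries. The groups overlapped, and the *Ocn*−/− libraries alone spanned the range of all 9. Against WT, the log2 fold change of *Gad1* was −0.04 (95% interval −0.28 to 0.21) in *Ocn*+/− and −0.08 (−0.32 to 0.17) in *Ocn*−/− forebrain, with adjusted p of 0.892 and 0.755 (edgeR quasi-likelihood test, Benjamini-Hochberg over 16076 genes, as for all forebrain values below). *Gad2* stood at 124.9, 104.6 and 136.6 CPM in WT pups, at 106.4, 138.2 and 110.6 in *Ocn*+/− and at 97.59, 133.6 and 124.6 in *Ocn*−/− libraries, again with overlap of all groups. Its log2 fold change was −0.04 (−0.32 to 0.24) and −0.04 (−0.32 to 0.25), with adjusted p of 0.893 and 0.9. The signs of these 4 values turned when libraries were scaled by their total alone, to between 0.03 and 0.07. Within a library, *Gad1* had between 0.923 and 1.26 counts for each count of *Gad2*.

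*Slc32a1*, the vesicular transporter, was higher in *Ocn*−/− than in WT forebrain. Its level was 52.16, 50.34 and 48.92 CPM in WT pups, 58.3, 66.8 and 65.99 in *Ocn*+/− and 62.21, 84.19 and 62.02 in *Ocn*−/− libraries. All 6 mutant libraries lay above all 3 WT libraries, and the 2 mutant groups overlapped. The mean was 1.38 times that of WT in *Ocn*−/− forebrain (69.47 ± 12.7 against 50.47 ± 1.62 CPM, SD, n = 3), a log2 fold change of 0.46 (SE 0.114, edgeR adjusted p = 0.0251). In *Ocn*+/− forebrain it was 1.26 times that of WT (63.7 ± 4.69 CPM), with a log2 fold change of 0.33 (SE 0.114) that did not pass (edgeR adjusted p = 0.102). The call in *Ocn*−/− forebrain was lost without *Ocn*−/− 2, the highest library (log2 fold change 0.30, edgeR adjusted p = 0.147), without WT 2 (0.46, 0.0757) and without WT 3 (0.44, 0.107). It was kept without *Ocn*−/− 1 (0.53, edgeR adjusted p = 0.0243) and without *Ocn*−/− 3 (0.54, 0.0126).

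The level of *Slc32a1* relative to that of the 2 decarboxylases was computed after the values had been seen, and is given as a description. There were 19.7, 21.9 and 16.7 *Slc32a1* counts per 100 *Gad1* and *Gad2* counts in the WT libraries, 24.2, 24.2 and 26.6 in *Ocn*+/− and 28.6, 28.3 and 25.9 in *Ocn*−/− libraries. These ratios, which do not depend on how libraries are scaled, lay below 22 in WT and above 24 in all mutant libraries. Genes of striatal projection neurons, which also use GABA, went in both directions. Of the 13 tested, 3 were called higher in *Ocn*−/− forebrain, where 1.8% of all genes were (among them *Drd1*, log2 fold change 0.95, and *Adora2a*, 0.66, with edgeR adjusted p of 0.00243 and 0.0126) and none in *Ocn*+/− forebrain, where the lowest edgeR adjusted p was 0.0522. *Ebf1* was at 26.7 to 35.2 CPM in *Ocn*−/− libraries, all below the 37.1 to 56.6 CPM of WT, and did not pass (log2 fold change −0.58, edgeR adjusted p = 0.0853). *Foxp2* (−0.20) and *Isl1* (−0.22) also had negative values that did not pass, and the median of the 13 was 0.24 in *Ocn*−/− (8 positive) and −0.02 in *Ocn*+/− forebrain (6 positive), beside 0.01 in both over all genes. The summed level of the 13 was 624 to 676 CPM in WT pups, 552 to 744 in *Ocn*+/− and 659 to 741 in *Ocn*−/− forebrains. Their part in the level of *Slc32a1* was not tested. In bulk tissue, a change in the number of cells of a type and a change in the RNA per cell cannot be told apart.

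The 2 peptides of the group had higher means in mutant forebrains, without passing the test. *Sst* stood at 100.2, 109.4 and 88.59 CPM in WT pups, 101.3, 158.8 and 131 in *Ocn*+/− and 91.28, 141 and 122.5 in *Ocn*−/− libraries. Replicate 1 of either mutant genotype lay within the WT range, and the others lay above it. The log2 fold change of *Sst* was 0.39 (95% interval −0.06 to 0.84) in *Ocn*+/− and 0.25 (−0.20 to 0.70) in *Ocn*−/− forebrain, with edgeR adjusted p of 0.314 and 0.509. The first value was 0.22 without *Ocn*+/− 2, the highest library, and 0.54 without *Ocn*+/− 1, and the second was 0.10 without *Ocn*−/− 2 and 0.40 without *Ocn*−/− 1. *Npy* was at 31.19, 29.72 and 32.02 CPM in WT pups, 38.14, 37.89 and 41.87 in *Ocn*+/− and 32.35, 30.54 and 43.21 in *Ocn*−/− libraries. The 3 *Ocn*+/− libraries were above all WT libraries, whereas the *Ocn*−/− group overlapped both. The log2 fold change of *Npy* was 0.35 (0.08 to 0.61, edgeR adjusted p = 0.125) in *Ocn*+/− and 0.19 (−0.07 to 0.46, 0.397) in *Ocn*−/− forebrain. For *Npy* the second value rested on *Ocn*−/− 3, without which it was 0.02.

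*Calb2*, which encodes the calcium-binding protein calretinin, was higher in *Ocn*+/− than in WT forebrain. It stood at 19.29, 17.51 and 18.15 CPM in WT pups, 38.48, 32.78 and 46.97 in *Ocn*+/− and 16.93, 30.54 and 30.18 in *Ocn*−/− libraries. All *Ocn*+/− libraries were above all others, and *Ocn*−/− 1 lay below WT while *Ocn*−/− 2 and 3 lay above it. The mean of *Ocn*+/− forebrains was 2.15 times that of WT (39.41 ± 7.14 against 18.32 ± 0.902 CPM, SD, n = 3), a log2 fold change of 1.10 (SE 0.202, edgeR adjusted p = 0.0101), which missed the threshold without WT 2 (1.07, 0.0511) and without WT 3 (1.10, 0.0797). In *Ocn*−/− forebrain the mean was 1.41 times that of WT, with a log2 fold change of 0.50 (SE 0.204, edgeR adjusted p = 0.176), and of 0.73 (0.0123) without *Ocn*−/− 1. Between the mutant genotypes, which share the maternal genotype, *Calb2* had a log2 fold change of −0.60 (SE 0.19) from *Ocn*+/− to *Ocn*−/− with an unadjusted p of 0.00693 and an edgeR adjusted p of 0.999, and of −0.38 without *Ocn*−/− 1.

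The level of *Calb2* moved across libraries with some genes of the olfactory bulb and with the sum of those listed. The 9 of these genes found in the table summed to 115.2, 121.4 and 124.9 CPM in WT pups, 230.9, 210.9 and 244.9 in *Ocn*+/− and 108.1, 213.3 and 204.1 in *Ocn*−/− libraries. *Ocn*−/− 1 was thus with the WT libraries for this sum as for *Calb2*. *Cdhr1*, a cadherin of mitral and tufted cells, had 10.9, 12.6 and 4.8 CPM in WT pups, 82.5, 71.0 and 92.1 in *Ocn*+/− and 8.15, 51.8 and 54.0 in *Ocn*−/− libraries. *Tbx21*, a transcription factor of the same cells, had 0 counts in *Ocn*−/− 1, 0.178 to 0.534 CPM in WT and 1.05 to 2.98 CPM in the 5 other mutant forebrains. Of the 9 genes, 4 (*Cdhr1*, *Synpr*, *Tbx21* and *Th*) were higher in all 5 libraries with the larger sum than in the 4 others, and *Cdhr1* and *Synpr* (61.9 to 71.1 against 81.4 to 109.0 CPM) made up most of the sum's difference. The libraries were split by the sum of these same genes, so this separation is a description and no test. The share of all genes that separate the same libraries is not given here. The 5 others overlapped: *Doc2g* was at 3.75 to 6.11 CPM in the 4 libraries and 4.02 to 5.98 in the 5, *Lhx1* at 0.799 to 4.27 and 1.7 to 3.45, *Eomes* at 11.5 to 21.9 and 17.9 to 23.4, *Sp8* at 12.7 to 22.8 and 18.5 to 25.7, and *Omp* was below 1 CPM throughout. None of the 8 genes that could be tested was called, with edgeR adjusted p of 0.0556 or higher in *Ocn*+/− and 0.129 or higher in *Ocn*−/− against WT. In testes, which hold no olfactory bulb, the same 9 genes summed to 19.95 and 22.71 CPM in WT and 34.2 to 60.97 CPM in mutant libraries, and 2 of the 4 tested there (*Lhx1* and *Omp*) were called higher in either mutant genotype, with edgeR adjusted p of 0.0255 to 0.0499, where 3.89% of all genes were called higher in *Ocn*+/− and 2.54% in *Ocn*−/− testes. These calls were not recomputed under other settings. *Cdhr1*, *Synpr*, *Tbx21* and *Th* were at most at 1.17 CPM in testes. The part of olfactory bulb tissue in the level of *Calb2* was not tested. *Slc32a1* was at 62.21 CPM in *Ocn*−/− 1, above all WT libraries, where the olfactory bulb genes were at 108.1 CPM. Its highest level, 84.19 CPM, was in *Ocn*−/− 2, where these genes were at 213.3 CPM. The part of olfactory bulb tissue in the level of *Slc32a1* was not tested either.

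**Figure D2:**
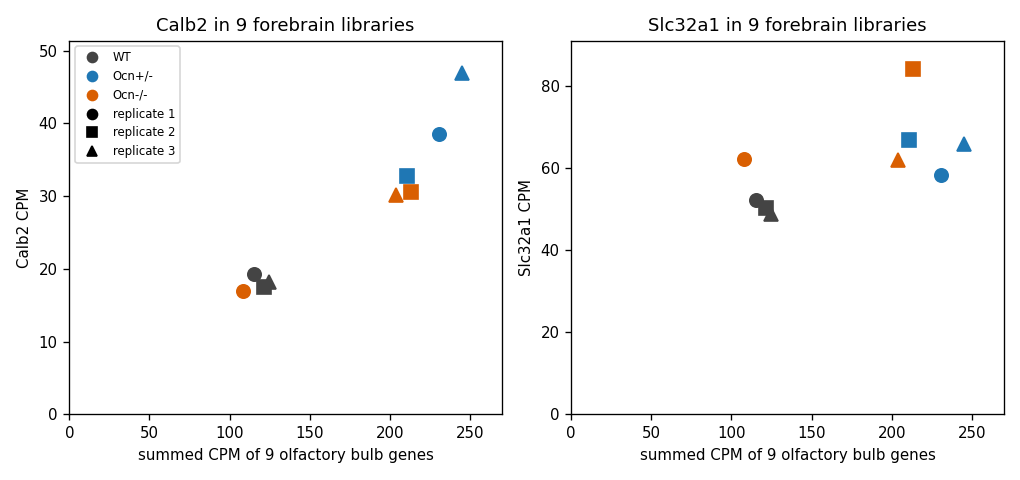
Level (CPM, linear axes from 0) of *Calb2* (left) and *Slc32a1* (right) against the summed level of 9 olfactory bulb genes in each of the 9 forebrain libraries; colours mark the genotype and symbols the replicate. *Calb2* was at 16.93 to 19.29 CPM in the 4 libraries with at most 124.9 CPM of olfactory bulb genes and at 30.18 CPM or more in the 5 others. *Slc32a1* was at 62.21 CPM in *Ocn*−/− 1, which had 108.1 CPM of these genes, and at 84.19 CPM in *Ocn*−/− 2, which had 213.3 CPM.

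*Lhx6* and *Nkx2-1*, the transcription factors of interneurons from the medial ganglionic eminence, had lower means in mutant forebrains and did not pass the test. *Lhx6* stood at 84.64, 96.07 and 116.7 CPM in WT pups, 70.94, 92.91 and 83.8 in *Ocn*+/− and 80.18, 79.51 and 78.73 in *Ocn*−/− libraries. All *Ocn*−/− libraries lay below the lowest WT library, while the *Ocn*+/− group overlapped WT, and the WT group was the most spread. The log2 fold change of *Lhx6* was −0.26 (95% interval −0.49 to −0.02, edgeR adjusted p = 0.207) in *Ocn*+/− and −0.31 (−0.55 to −0.07, 0.112) in *Ocn*−/− forebrain, and without WT 3, the highest library, it was −0.13 and −0.18. Without *Ocn*+/− 1 the first was −0.16. *Nkx2-1* was low, with 60 to 144 counts per library, at 5.719, 6.911 and 13.7 CPM in WT pups, 9.739, 7.672 and 5.443 in *Ocn*+/− and 5.271, 6.229 and 6.248 in *Ocn*−/− libraries. Its highest value was that of WT 3, and the groups overlapped. The log2 fold change of *Nkx2-1* was −0.14 (−0.75 to 0.46) and −0.50 (−1.12 to 0.11), with edgeR adjusted p of 0.825 and 0.33, and without WT 3 these values were 0.28 and −0.08, while the second was −0.76 without WT 1. *Nkx2-1* is also made in the hypothalamus, of which 12 genes summed to 17.31, 10.71 and 20.81 CPM in WT pups, 25.23, 13.79 and 9.005 in *Ocn*+/− and 0.879, 11.99 and 9.259 in *Ocn*−/− libraries. *Ocn*−/− 1 and *Ocn*+/− 1 held the lowest and highest sum, and WT 3 the second highest. The part of hypothalamic tissue in the level of *Nkx2-1* was not tested.

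*Htr3a*, a subunit of the serotonin-gated ion channel, was the lowest of the 9 genes and had 31 to 97 counts per forebrain. It stood at 5.185, 6.451 and 5.515 CPM in WT pups, 4.599, 4.03 and 5.846 in *Ocn*+/− and 3.274, 6.497 and 3.387 in *Ocn*−/− libraries. The *Ocn*−/− group held both the lowest library and the highest. The log2 fold change of *Htr3a* was −0.24 (95% interval −0.80 to 0.32) and −0.37 (−0.93 to 0.20), with edgeR adjusted p of 0.658 and 0.454. Leaving out 1 library moved the first between −0.40 (without *Ocn*+/− 3) and −0.12 (without *Ocn*+/− 2) and the second between −0.77 (without *Ocn*−/− 2) and −0.20 (without *Ocn*−/− 1).

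**Figure D3:**
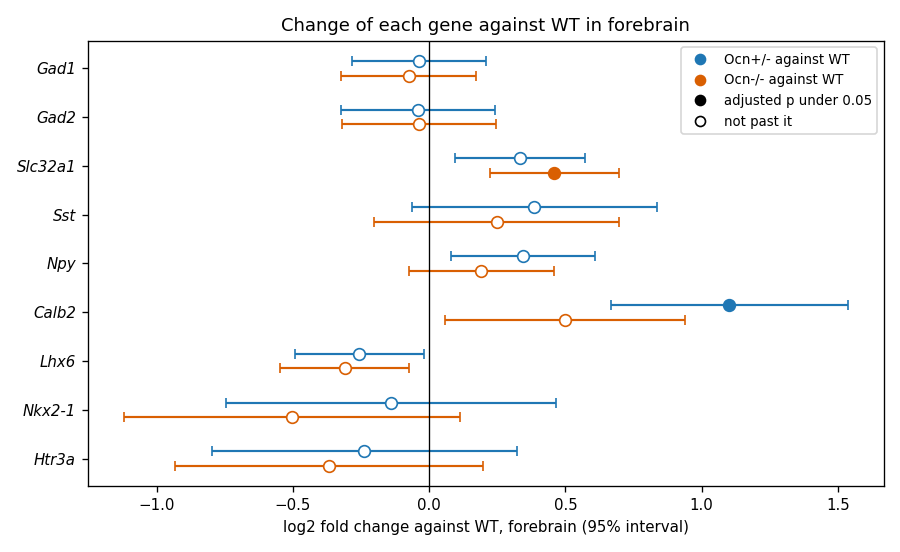
Log2 fold change of each gene against WT in forebrain, with its 95% interval from the edgeR fit; blue is *Ocn*+/− against WT, orange *Ocn*−/− against WT, and filled points passed an adjusted p of 0.05. The 2 filled points are *Calb2* in *Ocn*+/− (1.10) and *Slc32a1* in *Ocn*−/− forebrain (0.46), and the intervals of *Gad1* and *Gad2* span 0.

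Counted together, 1 of the 9 genes was called in *Ocn*+/− against WT forebrain (higher), where 3.89% of all genes tested were called and 1.21% were called higher. In *Ocn*−/− against WT forebrain 1 of 9 was called (higher), where 4.85% of all genes were called and 1.8% were called higher. With libraries scaled by their total alone, 47.7% and 64.5% of the calls over all genes were higher, against 31% and 37.2%, and the median of all genes moved to 0.09 and 0.11 on the log2 scale. None of the 9 was called between *Ocn*−/− and *Ocn*+/− forebrain by edgeR, where 0.00622% of all genes were called. At an unadjusted p under 0.05 there were 1 of the 9 and 515 genes in all in that comparison. DESeq2 called none of the 9 between the mutant genotypes, and 1 of the 9 in each comparison with WT. Without WT 3 the calls over all genes numbered 183 in *Ocn*+/− and 189 in *Ocn*−/− against WT, compared with 625 and 780 with all libraries. The groups did not overlap for 3 of 9 genes in *Ocn*+/− against WT (*Slc32a1*, *Npy* and *Calb2*, all above WT), where 26.8% of all genes did not overlap and 12.9% lay above WT. They did not overlap for 2 of 9 in *Ocn*−/− against WT (*Slc32a1* above and *Lhx6* below), against 26.8% of all genes, 12.9% above and 13.9% below, and for 1 of 9 between the mutant genotypes (*Calb2*, lower in *Ocn*−/−), against 7.77% of all genes, 4.12% lower. The median log2 fold change of the 9 genes was −0.04 in both comparisons with WT, beside 0.01 in both over all genes. The comparisons with WT share the WT libraries and are not independent of each other.

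No single library set all 9 genes in the same direction. *Ocn*−/− 1 was the lowest of the 9 libraries for 4 genes, *Ocn*−/− 2 the highest for 3, and WT 3 the highest for 2 and the lowest for 2. Over the 9 forebrains, the genes whose log2 level was most like the mean of the 9 centred levels were *Gm5537* (Pearson r 0.97, Spearman rho 0.9), *Ccl28* (0.96, 0.9), *Maoa* (0.93, 0.8), *Aplp2* (0.93, 0.9) and *Sub1* (0.92, 0.82). They were the closest of 16067 genes over only 9 libraries that share their genotype groups and depths, and the values are a description. *Ccl28* was at 0.479 to 1.68 CPM.

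Other genes of GABA handling and of interneurons were taken from 3 lists, whose values were not recomputed under other settings. The first held 8 genes of GABA synthesis, transport and breakdown. *Glul*, the glutamine synthetase of astrocytes, was called lower in *Ocn*−/− forebrain, at 352 ± 27.9 CPM in WT, 293 ± 21.3 CPM in *Ocn*+/− and 270 ± 25.3 CPM in *Ocn*−/− libraries (SD, n = 3). Its log2 fold change was −0.38 (edgeR adjusted p = 0.0153) in *Ocn*−/− and −0.26 (0.0839) in *Ocn*+/− forebrain. *Abat*, the GABA transaminase, did not pass (0.08 and 0.11).

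The second list held 21 transcription factors that specify interneurons. *Dlx1* (−0.05 and −0.09) and *Dlx2* (−0.21 and −0.39), which drive the GABAergic fate, did not pass. Of 17 further interneuron markers 16 could be tested, and *Pvalb* was too low. *Elfn1*, a synaptic adhesion protein of somatostatin interneurons, was called higher in both genotypes, at 18.2 ± 1.72 CPM in WT pups, 25.8 ± 2.71 in *Ocn*+/− and 28.4 ± 2.9 in *Ocn*−/− forebrain. Its log2 fold change was 0.50 (edgeR adjusted p = 0.0386) for *Ocn*+/− and 0.64 (0.0101) for *Ocn*−/− mice. *Reln*, secreted by Cajal-Retzius cells and some interneurons, was called lower in *Ocn*−/− forebrain, at 446 ± 21.9 against 563 ± 49.2 CPM in WT (log2 fold change −0.34, edgeR adjusted p = 0.0195), and at 485 ± 26.8 CPM in *Ocn*+/− forebrain it did not pass (−0.22, 0.125). The median log2 fold changes of the 3 lists ranged from −0.05 to 0.02 for *Ocn*+/− and from −0.09 to 0.12 for *Ocn*−/− forebrain.

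In testes, an organ without interneurons, the 9 genes were near the lower limit of detection. *Gad2* had at most 2, *Sst* at most 1 and *Nkx2-1* at most 2 counts per testis, *Slc32a1* 1 to 6, *Calb2* 1 to 5, *Htr3a* 1 to 8, *Npy* 1 to 20, *Gad1* 2 to 39 and *Lhx6* 19 to 36. In CPM, for which each tissue was normalized alone, the mean forebrain level was 59.3 times that of testes for *Gad1*, 140.0 times for *Slc32a1*, 79.4 times for *Calb2*, 44.6 times for *Npy*, 25.7 times for *Lhx6* and 8.76 times for *Htr3a*. Against the level that 3 counts in each testis would give (0.384 CPM on average), *Gad2* was at least 311-fold, *Sst* at least 302-fold and *Nkx2-1* at least 19.4-fold higher in forebrain. With both tissues normalized together, these ratios and bounds were 1.25 to 1.26 times as large. All 9 were called higher in forebrain in a joint fit of both tissues (edgeR adjusted p of 9.13e-13 or lower, apart from 9.08e-11 for *Htr3a*), where 39.9% of the 17800 genes tested were. The genes were chosen as marks of brain cells, and those with few counts in testes passed the filter through forebrain. These calls therefore describe the choice of genes and are no separate result. Ratios that rest on so few counts in testes are imprecise.

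**Figure D4:**
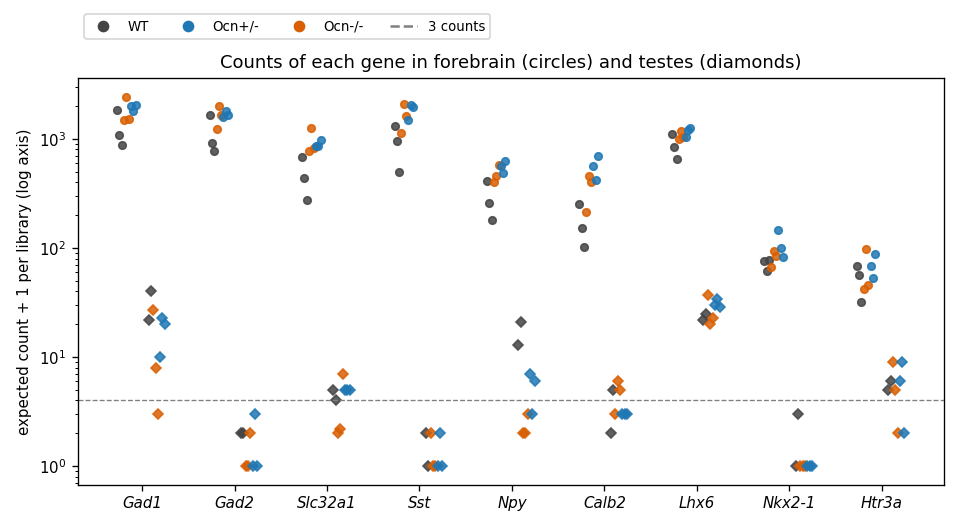
Expected count plus 1 of each gene in every library (log axis), with forebrains as circles and testes as diamonds, coloured by genotype; the dashed line marks 3 counts. All forebrain libraries lie above all testis libraries for each of the 9 genes, and in testes *Gad2*, *Sst* and *Nkx2-1* lie below the line in all 8 libraries.

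Only *Gad1*, *Npy* and *Lhx6* had enough counts to be tested among genotypes in testes. *Npy* had 12 and 20 counts in WT, 6, 2 and 5 in *Ocn*+/− and 1, 1 and 2 in *Ocn*−/− testes. Both mutant groups lay below WT and overlapped each other. It was called lower in *Ocn*−/− testes (log2 fold change −3.50, 95% interval −5.16 to −1.84, edgeR adjusted p = 0.0167), where 5.64% of the 16361 genes tested were called and 3.09% were called lower. Its WT mean was 5.48 times the level that 3 counts would give in *Ocn*−/− testes. *Npy* passed the filter on low counts through the WT libraries, the group where it was high, so the call is a description. The call was lost without *Ocn*−/− 1 (edgeR adjusted p = 0.0649), and without WT 1 (0.0684) or WT 2 (0.302), where a single WT testis was left and was assumed to vary like the other groups. DESeq2 gave *Npy* no adjusted p in testes. The number of all genes called also depended on the WT testes: without WT 1 or WT 2 it was 231 or 85 in *Ocn*−/− against WT, compared with 922, and 131 or 118 in *Ocn*+/− against WT, compared with 1350. With libraries scaled by their total alone, 65.2% of the calls in *Ocn*−/− and 68.1% of those in *Ocn*+/− testes were higher, against 45.1% and 47.2%. *Gad1* had 21 and 39 counts in WT, 9, 22 and 19 in *Ocn*+/− and 26, 7 and 2 in *Ocn*−/− testes, with overlapping groups and a log2 fold change of −1.41 (SE 0.679, edgeR adjusted p = 0.233) in *Ocn*−/− testes. This value was −2.69 (edgeR adjusted p = 0.0527) without *Ocn*−/− 1, −0.93 (0.403) without *Ocn*−/− 3 and −0.91 (0.748) without WT 2. *Lhx6* had 21 and 24 counts in WT, 29, 33 and 28 in *Ocn*+/− and 36, 19 and 22 in *Ocn*−/− testes, and its log2 fold change was 0.46 (edgeR adjusted p = 0.483) and 0.14 (0.867), the latter turning to −0.12 without *Ocn*−/− 1. None of the 3 was called by edgeR in *Ocn*+/− against WT testes, where 8.25% of all genes were called. At an unadjusted p under 0.05 there were 1 of the 3 and 4235 genes in all, and *Npy* was called by edgeR's likelihood ratio test. None was called between *Ocn*−/− and *Ocn*+/− testes, where 0 of 16361 genes were called by edgeR, with 0 of the 3 and 1881 genes at an unadjusted p under 0.05 and 70 genes called by DESeq2.

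The difference between mutant and WT mice was compared between the tissues in the joint fit, with the average of *Ocn*+/− and *Ocn*−/− set against WT. By the quasi-likelihood test on all libraries it passed for *Npy* alone among the 9 genes (edgeR adjusted p = 0.000455). Of all genes, 2.96% passed (526 genes). For *Npy* the testis side rests on 12 and 20 counts in WT and 1 to 6 in mutant libraries. The result for *Npy* is therefore a description. A filter asking for a minimum of counts in every library dropped *Npy*, so it could not be tested there. The mean of *Npy* in forebrain was 30.98 CPM (WT), 39.3 CPM (*Ocn*+/−) and 35.37 CPM (*Ocn*−/−), against 2.04, 0.579 and 0.166 CPM in testes. For *Gad1* the difference between the tissues was 1.05 on the log2 scale (SE 0.517, edgeR adjusted p = 0.294), and for *Lhx6* −0.58 (SE 0.275, 0.261). That of *Gad1* passed without testis *Ocn*−/− 1 (1.71, edgeR adjusted p = 0.0325) and by the likelihood ratio test (0.0396), and was 0.56 (0.796) without testis WT 2. The others had too few counts in testes for the size of such a difference to be read.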

How the data were processed

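Poly-A RNA of 9 forebrains and 8 testes was sequenced. According to the submitters' notes and the paper's methods, reads were trimmed with Trim Galore 0.6.6, aligned to GRCm39 with STAR 2.7.8a and counted with RSEM 1.3.3, and the authors deposited RSEM's expected counts, without normalization, for 55359 genes (9625 with a value that is not whole). RSEM divides reads that match several genes. Groups were taken from the labels. Symbols came from GENCODE, in which 54749 identifiers were found. The others held at most 0.102% of a library's counts. The GENCODE release and strandedness are not given in the sources used here.

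Counts were rounded and fitted with edgeR 4.0.16 (R 4.3.3, limma 3.58.1): TMM, filterByExpr, robust quasi-likelihood tests, two-sided, Benjamini-Hochberg over all genes tested, a call at an adjusted p under 0.05. Each tissue was fitted alone with all genotypes, and both together for the tissue comparisons. All 9 genes are named, and from each further list up to 4 genes called against WT, otherwise the 2 most abundant. *Abat*, *Dlx1* and *Dlx2* were added after values were seen, as were the olfactory bulb and striatal genes. The likeness used log2 CPM with a prior count of 2. Genes with at most 3 counts per library of a group were set against the level of 3 counts. The fits were tested on simulated data. Some genes of the lists are not reported here. Genes and lists were chosen with earlier results of these data known. Alternatives included DESeq2 1.42.0, other scalings and filters, and each library left out.

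Depth was 6518151 to 14621584 counts per forebrain and 7302401 to 8289015 per testis. Sequences are RefSeq's (table of GRCm38.p6), placed in GRCm39 by exact match.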

Additional observations from a re-analysis of the deposited data

Results flagged for a closer look

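In a joint fit, the mutant against WT difference in *Npy* passed the test between forebrain and testes (edgeR adjusted p = 0.000455). It was also past 0.05 in all 6 alternatives that kept every library and the gene, the highest adjusted p being 0.000523. Leaving out 1 library gave a log2 difference of 2.55 to 3.25. A filter asking for a minimum of counts in every library dropped *Npy*, so the difference could not be tested there. In forebrain the means of *Npy* were 39.3 and 35.37 CPM in *Ocn*+/− and *Ocn*−/− against 30.98 CPM in WT, with neither difference past the threshold. In testes *Npy* had 12 and 20 counts in WT and 1 to 6 in the 6 mutant libraries. The result thus rests on few counts in 2 WT testes, and is given as a description. No group had more than 3 libraries, and single libraries were therefore not tested as outliers.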

How the results depend on the processing

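Over 666 combinations of gene, comparison and alternative, 610 kept direction and call, 30 changed sign, 10 became called, 8 lost the call and 8 were given no adjusted p by DESeq2, and the cause was not tested. Without the filter on low counts 3 of the 9 genes were called in *Ocn*+/− against WT forebrain (1265 of all genes, against 625 with it). There were 3 in *Ocn*−/− against WT forebrain (1502 of all genes, against 780) and 1 between the mutant genotypes (34 of all genes, against 1). A fit of only the 2 genotypes compared called 2 in *Ocn*+/− against WT forebrain (832 of all genes, against 625). Leaving out 1 library gave 0 to 1 calls in *Ocn*+/− against WT forebrain, 0 to 2 in *Ocn*−/− against WT forebrain, 0 to 1 in *Ocn*−/− against WT testes and 1 to 2 for the difference between tissues. The likelihood ratio test called 1 in *Ocn*+/− against WT testes (1942 of all genes, against 1350) and 2 for the difference between tissues (1028 of all genes, against 526). In *Ocn*−/− against WT testes DESeq2 called 0, since it gave *Npy* no adjusted p. A minimum of 10 counts in every library left fewer genes to test and gave 0 calls there, 0 for the difference between tissues and 1 between tissues. Over all genes, the calls in *Ocn*+/− against WT forebrain numbered 369 with library size alone, 1022 with the likelihood ratio test, 1265 without the filter and 183 without WT 3, against 625, and those in *Ocn*−/− against WT forebrain 1237, 1502 and 189 in the last 3, against 780. In testes they numbered 2149 without the filter and 2084 with only the 2 genotypes compared in *Ocn*+/− against WT (1350), and 1567 with the likelihood ratio test and 1763 without the filter in *Ocn*−/− against WT (922), and leaving out 1 library gave 118 to 2019 and 85 to 1559. For the difference between tissues they numbered 1028 with the likelihood ratio test, 1023 without the filter, 1019 with DESeq2 and 93 to 1070 with 1 library left out, against 526.

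The values that changed sign were small. With library size alone, *Gad1* was at 0.052 and 0.0343 and *Gad2* at 0.0453 and 0.0708 in *Ocn*+/− and *Ocn*−/− against WT forebrain. With upper quartile scaling, *Gad2* was at −0.008 between the mutant genotypes. Leaving out 1 library moved *Gad1* from −0.1134 to 0.0479 (*Ocn*+/− against WT forebrain), −0.2528 to 0.0202 (*Ocn*−/− against WT) and −0.2173 to 0.0556 (*Ocn*−/− against *Ocn*+/−), and *Gad2* from −0.1649 to 0.0444, −0.1379 to 0.0856 and −0.0908 to 0.1288. In *Ocn*+/− against WT forebrain it moved *Nkx2-1* from −0.4013 to 0.2834. Between the mutant genotypes it moved *Slc32a1* from −0.0357 to 0.2029, *Sst* from −0.2909 to 0.0269, *Lhx6* from −0.1523 to 0.0388 and *Htr3a* from −0.536 to 0.0389, and in *Ocn*−/− against WT testes it moved *Lhx6* from −0.1229 to 0.2949.

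Deviations of same-numbered libraries of different genotypes had correlations of −0.037 to 0.146 in forebrain and −0.094 to 0.087 in testes. Those of differently numbered libraries were −0.197 to 0.105 and −0.119 to 0.119. Within a group of so few libraries the deviations are tied to each other, so these values cannot show whether the numbers pair the libraries. With the replicate block, 1 gene was called in each comparison with WT and 0 between the mutant genotypes in forebrain, and *Gad2* was at -3e-04 between the latter.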
